A study of Mus musculus with 4 samples.

Results

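The miR-15/16 family is a set of microRNAs (miRNAs) that share one seed, the bases near the 5′ end through which a miRNA pairs with its targets. Its members here are mmu-miR-15a, mmu-miR-15b, mmu-miR-16, mmu-miR-195, mmu-miR-322 and mmu-miR-497, found by their gene names in the array files. All 6 were present among 577 miRNA names on the array. The line studied was A3-1, mouse embryonic stem cells cultured in 20% fetal bovine serum with LIF, which holds them in the undifferentiated state. In the control group (siGFP) they carried an siRNA against GFP, and in the other group (siLin28a) an siRNA against Lin28a, for 48 h. Each group had 2 replicates, and 100 ng of total RNA from each was labelled with Cy3 for 1 single-colour Agilent array. The labels do not say whether replicates came from separate cultures, so each p-value reflects the scatter of these 4 samples alone, and that scatter may be technical. RNA came from whole cultures, in which fewer cells with a miRNA and less of it per cell cannot be told apart.

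miRNAs of this family are known as repressors of the cell cycle. They pair with mRNAs of D-type and E-type cyclins and other factors that carry cells from G1 into S phase, and miR-15a and miR-16 are also known to repress the survival gene Bcl2. LIN28A is an RNA-binding protein best known for binding the loop of let-7 precursors, often at a GGAG motif, and so blocking their maturation. Mouse embryonic stem cells cycle fast with a short G1 phase, in which miRNAs of the miR-290 cluster are known to take part. Set against the control, the siLin28a group shows how mature miRNA levels stand once Lin28a is targeted. The array measures no mRNA, so the level of Lin28a itself was not analysed here.

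The mature sequences show what the members share and where they part. They are given 5′ to 3′ from RefSeq (GRCm38.p6), with the seed, bases 2 to 8, in capitals:
miR-15a: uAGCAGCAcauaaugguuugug
miR-15b: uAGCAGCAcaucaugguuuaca
miR-16: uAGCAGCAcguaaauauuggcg
miR-195: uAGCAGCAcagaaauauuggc
miR-322: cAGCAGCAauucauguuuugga
miR-497: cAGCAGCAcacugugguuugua
The 6 members have the same seed, so they differ only at base 1 and after base 8. miR-322 and miR-497 begin with C, and the other 4 begin with U. Counted from the 5′ end without gaps, the closest pair was miR-16 and miR-195, identical at 19 of 21 positions and parted by G10A and U11G (the base of miR-16 first). miR-15a and miR-15b were identical at 18 of 22 positions, and miR-15a and miR-497 at 17 of 22. The least alike pairs, at 11 identical positions, were miR-16 with miR-497 (of 22) and miR-195 with miR-322 (of 21). The seed occurs in 10 of 1679 mature mouse sequences of the table, and the 4 that are not members were not on this array.

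The members come from 4 places in the genome. In build mm9, the probe targets given by the files lie at chr14:62250912-62250933 for miR-15a and chr14:62250773-62250790 for miR-16. They lie at chr3:68813699-68813718 for miR-15b, at chr11:70048566-70048584 for miR-195, at chr11:70048234-70048253 for miR-497 and at chrX:50407483-50407504 for miR-322. miR-16 is made from a pair of hairpins, one beside miR-15a and one beside miR-15b, and its mature product is the same from both, so its signal cannot be divided between them. By RefSeq genes (GRCm38.p6), Mir15a and Mir16-1 lie within the bounds of the long non-coding RNA gene Dleu2, and Mir15b and Mir16-2 within those of Smc4, which codes for a condensin subunit. Mir322 lies within the non-coding gene C430049B03Rik, and no gene other than a miRNA spans Mir195a or Mir497. Which exon or intron holds each one was not analysed here. The probe targets named miR-322 and miR-322* are 37 bases apart in the files, as are the RefSeq 5p and 3p arms, so miR-322 here is the 5p arm with the family seed.

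Of the 6 member hairpins in the RefSeq table, 1 holds the letters GGAG on its own strand: that of miR-322, at bases 42 to 45, where the mature miRNA ends at base 44. Its neighbour miR-503, which is no member, holds them at bases 46 to 49. They are shown with those letters in capitals because GGAG is the motif LIN28A is known for:
Mir322: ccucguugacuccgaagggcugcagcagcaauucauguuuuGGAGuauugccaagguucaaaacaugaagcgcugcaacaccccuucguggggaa
Mir503: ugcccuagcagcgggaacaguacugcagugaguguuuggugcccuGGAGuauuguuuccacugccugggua
The hairpins of Mir15b, Mir16-1, Mir16-2, Mir195a and Mir497 held no match. The motif was searched on the sense strand only. It is common, occurring in 263 of 580 mouse hairpins of 64 to 95 bases (45.3%). The hairpin of Mir15a was not analysed here.

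Each member was measured by 2 probes, which for the 5 members other than miR-15b share one end of the target and differ in length, with 7 to 10 spots per kept probe and array after outliers were left out. Feature Extraction called all 6 detected on all 4 arrays. The total gene signal, a linear intensity not scaled between arrays, was 885 and 950 for miR-16 with siGFP and 1107 and 1218 with siLin28a. For miR-15b it was 459 and 452 against 540 and 616, and for miR-15a 220 and 233 against 259 and 267. The dimmer members were miR-497, at 70.2 and 87.2 against 79.9 and 109, miR-195, at 62.5 and 70.5 against 64.6 and 92.1, and miR-322, at 35.5 and 38.5 against 39.9 and 46.0. Signals of different miRNAs depend on their probes and are not compared with each other. The siLin28a arrays were brighter as a whole. Over the 425 probes that exceeded background on every array, the 75th percentile came to 226 and 220 for siGFP, against 248 and 265 for siLin28a. Each array was divided by that value, and the levels that follow are log2 of this scaled signal.

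After scaling, miR-16 and miR-15b were slightly higher on both siLin28a arrays, and miR-15a was level. For miR-16 the log2 scaled values with siGFP were 1.44 and 1.51, against 1.59 and 1.62 with siLin28a, so the groups did not overlap. The difference was 0.13 on the log2 scale (SE 0.056, limma adjusted p = 0.265, n = 2 per group), or 1.09-fold with a 95% interval of 0.974 to 1.22. For miR-15b they were 0.55 and 0.49 against 0.61 and 0.68, again without overlap. Its difference was 0.12 on the log2 scale (SE 0.064, limma adjusted p = 0.294), or 1.09-fold with an interval of 0.957 to 1.24. Neither passed the test, and with the scaling taken over all probes the differences were -0.049 and -0.052, while the median over all tested miRNAs moved to -0.16. Groups did not overlap in the higher direction for 30.7% of all 231 tested miRNAs, so 2 of 6 members is near the background. By size of difference miR-16 and miR-15b ranked 78 and 79 of 231 from the highest. For miR-15a, which shares a locus with one source of miR-16, the levels with siGFP were -0.51 and -0.46, against -0.45 and -0.52 with siLin28a. The groups overlapped and the difference was -0.0039 (SE 0.079, limma adjusted p = 0.986), with a fold interval of 0.851 to 1.17.

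**Figure D1:**
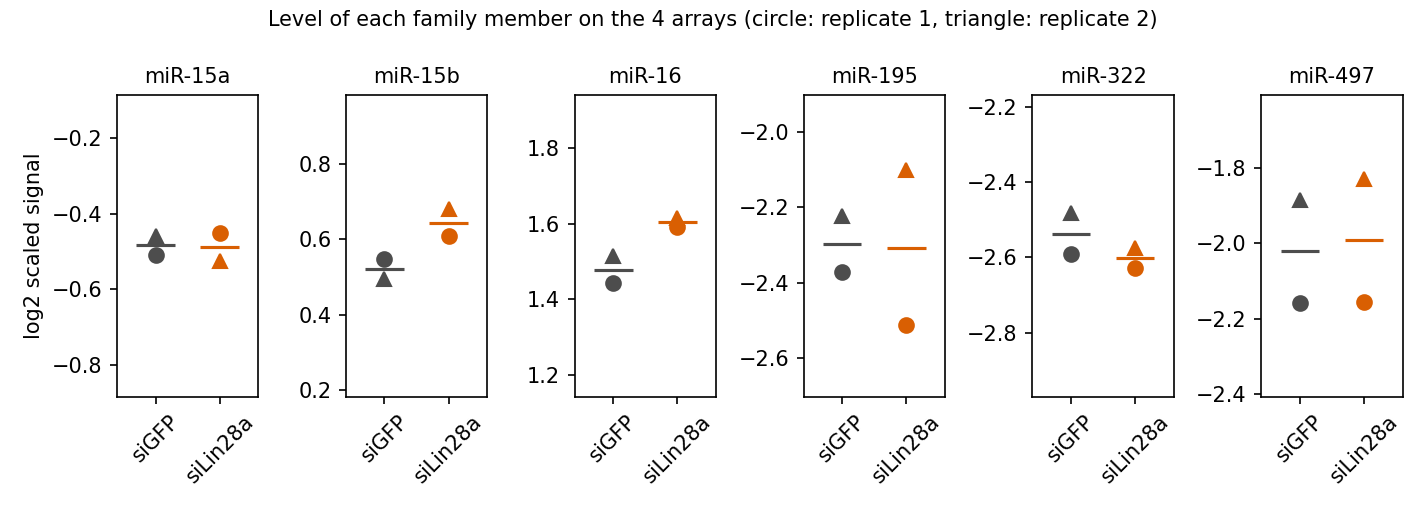
The log2 scaled signal of each family member on the 4 arrays, with siGFP in grey, siLin28a in orange, circles for replicate 1, triangles for replicate 2 and bars for group means (n = 2). Each panel has its own vertical axis over the same span, and the groups are apart only for miR-15b and miR-16.

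miR-195 and miR-497 are made from neighbouring hairpins on chromosome 11 and are known to rise as muscle and other tissues mature. For miR-195 the log2 scaled values with siGFP were -2.37 and -2.22, against -2.51 and -2.10 with siLin28a. The siLin28a arrays held both the lowest and the highest value, and the difference was -0.010 (SE 0.19, limma adjusted p = 0.986), with a fold interval of 0.681 to 1.45. It was 0.19 without siLin28a replicate 1, -0.22 without siLin28a replicate 2, -0.085 without siGFP replicate 1 and 0.064 without siGFP replicate 2, so its direction turned with the array left out. For miR-497 the signals were -2.16 and -1.88 against -2.15 and -1.83, nearly the same pair of values in each group. Its difference was 0.029 (SE 0.19, limma adjusted p = 0.934), with a fold interval of 0.695 to 1.50. It was -0.11 without siGFP replicate 1 and 0.17 without siGFP replicate 2. Without siLin28a replicate 1 it was 0.19, and without siLin28a replicate 2 it was -0.13.

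For this pair of miRNAs the spread between replicates was larger than the difference between groups. The same held for miR-15a in both groups and for miR-322 with siGFP. Replicate 2 exceeded replicate 1 for miR-195 by 0.15 with siGFP and by 0.41 with siLin28a, and for miR-497 by 0.28 and 0.32, on the log2 scale. For miR-16 the same differences were 0.071 and 0.024, for miR-322 0.11 and 0.053, for miR-15b -0.055 and 0.072, and for miR-15a 0.050 and -0.074. Over all 231 tested miRNAs the 10th to 90th percentile ran from -0.34 to 0.28 with siGFP and from -0.36 to 0.35 with siLin28a. In 41 of the 231, replicate 2 was more than 0.1 above replicate 1 in both groups, as in miR-195 and miR-497. Arrays of replicate 1 occupied positions 1 and 2 of the slide and those of replicate 2 positions 3 and 4, so number and position go together. The part of position in these values was not tested.

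**Figure D2:**
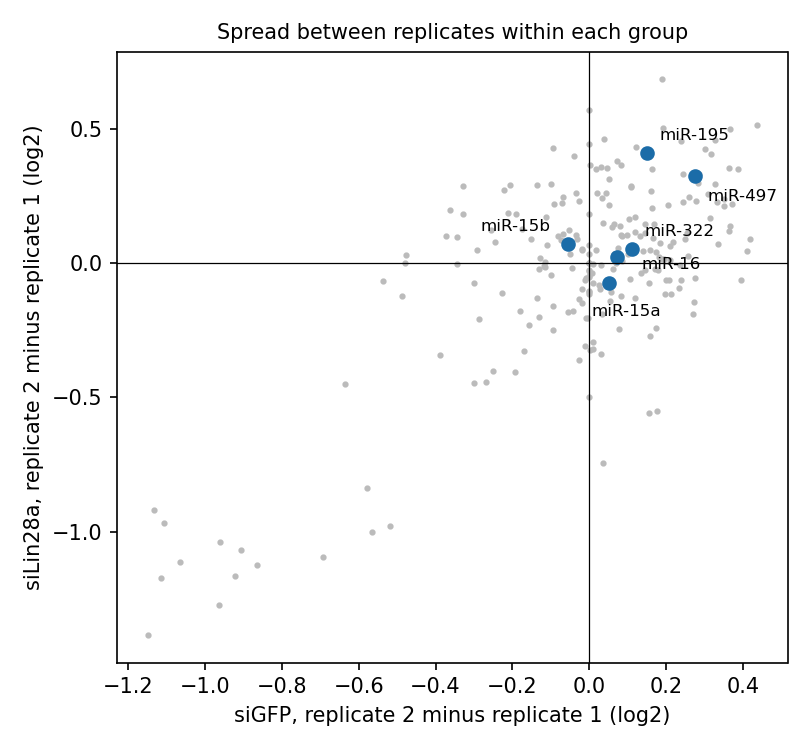
Replicate 2 minus replicate 1 in log2 scaled signal, with siGFP on the horizontal and siLin28a on the vertical axis, for the 6 members (blue) and the other tested miRNAs (grey). miR-195 and miR-497 lie in the upper right, at 0.15 and 0.41 and at 0.28 and 0.32, and the other 4 members lie close to 0.

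miR-322, the mouse counterpart of human miR-424, heads a cluster on the X chromosome and is known to act with miR-503 on G1 cyclins. Its log2 scaled values with siGFP were -2.59 and -2.48, against -2.63 and -2.58 with siLin28a, so the groups overlapped. The difference was -0.066 (SE 0.090, limma adjusted p = 0.655), with a fold interval of 0.798 to 1.14. This rests on 1 probe, since the other was well above background only on the array of siLin28a replicate 2. Before scaling, that dim probe gave mean spot signals of 13.9 and 13.4 with siGFP, against 15.9 and 19.0 with siLin28a. After scaling and without the floor its log2 difference was 0.15, opposite in sign to the -0.066 of the kept probe. Of 11 names of the cluster on the array, opposite strands included, 3 were tested and 0 passed, at a background of 0.866% called over all miRNAs. The other tested ones were both arms of miR-450a. For miR-450a-3p the levels with siGFP were -0.26 and -0.19, against -0.48 and -0.45 with siLin28a, with no overlap, and the difference was -0.24 (SE 0.074, limma adjusted p = 0.169). miR-450a-5p, at -2.78 and -3.26 with siGFP, lay below the floor on both siLin28a arrays and was set to it there. Its fitted difference was -0.38 (SE 0.18, limma adjusted p = 0.266), and its total gene signals were 37.0 and 30.0 against 27.1 and 25.5. Groups did not overlap in the lower direction for 30.7% of all tested miRNAs. miR-503 was detected on 1 array, with total gene signals of 6.61 and 5.48 with siGFP and 7.81 and 10.5 with siLin28a, and was not tested.

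Over the whole family, 0 of 6 members passed the test in either direction. Over all 231 tested miRNAs, limma called 0.866% at an adjusted p below 0.05, namely let-7a and let-7f, both higher. No member had an unadjusted p below 0.05, against 24.7% of all tested miRNAs. Of the members, 3 had a higher mean with siLin28a and 3 a lower one, and their median difference was 0.013 on the log2 scale, beside a median of 0 over all tested miRNAs. The fitted intervals cover the scatter between arrays under the reported scaling only. For miR-15a, miR-15b, miR-16 and miR-322 they lay between 0.798-fold and 1.24-fold, and for miR-195 and miR-497 between 0.681-fold and 1.50-fold. Without scaling, the log2 differences of miR-16 and miR-15b were 0.33 and 0.33, and they were 0.34 and 0.34 in the authors' deposited table, above the upper ends of their intervals, 0.29 and 0.31. With the replicate block the SE fell from 0.19 to 0.089 for miR-497 and from 0.19 to 0.11 for miR-195, and it rose from 0.056 to 0.091 for miR-16 and from 0.064 to 0.098 for miR-15b. An adjusted p above the threshold does not show that a level stayed the same.

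**Figure D3:**
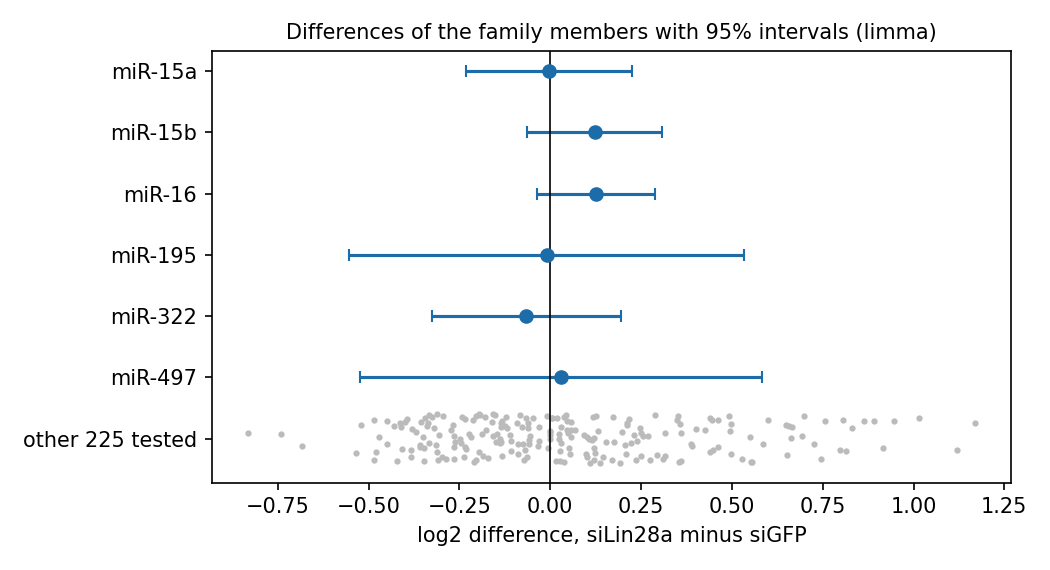
The log2 difference, siLin28a minus siGFP, of each family member with its 95% interval from limma (blue), above the differences of the other 225 tested miRNAs (grey, spread vertically for legibility). Every member's interval spans 0, and those of miR-195 and miR-497 are the widest of the 6.

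Differences between members do not depend on a factor common to a whole array. The log2 value of miR-15a minus that of miR-16 was -1.95 and -1.97 with siGFP, against -2.04 and -2.14 with siLin28a, a shift of -0.13. That of miR-15a minus miR-15b was -1.06 and -0.95, against -1.06 and -1.20, also a shift of -0.13, and here the groups nearly touch. The shift of miR-15b against miR-16 was -0.0031 as reported, but -0.11 with quantile normalization and -0.068 with normexp. The shift relative to miR-322 was 0.19 for miR-16 and 0.19 for miR-15b, with groups apart. Of 15 pairs of members, these 4 had groups that did not overlap. Over all 26565 pairs of tested miRNAs 58.4% had groups that did not overlap, so 4 of 15 is below the background and singles out no member. The exact permutation test over the 4 arrays, two-sided, gave p = 0.333 for each, the smallest it can give, and p = 1 adjusted over 15 pairs. With so few arrays no pair could pass, so this test cannot decide whether members differ. Although miR-16 and miR-195 are alike at 19 of 21 positions, their signals went apart between the siLin28a arrays, where miR-16 differed by 0.024 and miR-195 by 0.41. How far a probe for one member also binds another was not tested.

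Where both probes of a member were kept, their differences were close, while the left-out probe of miR-322 differed from the kept one as given above. For the 5 members with both kept, the gap between the probes' log2 differences was 0.015 for miR-15b, 0.019 for miR-15a, 0.028 for miR-16, 0.062 for miR-195 and 0.077 for miR-497. Of 11 kept probes, 7 had a higher and 4 a lower mean with siLin28a after scaling, and the number that were higher was 11 with no scaling and 0 with the scaling over all probes. The mean spot signals of the miR-16 probes, before scaling, were 462, 476, 566 and 625 for the one of 17 target bases and 815, 828, 989 and 1056 for the one of 18, with siGFP replicates 1 and 2 first. Both probes of miR-16 and both of miR-15b were higher with siLin28a, while the pairs of miR-15a, miR-195 and miR-497 had 1 probe on each side of 0. Spots of 1 probe varied with a coefficient of variation of 2.21% to 12.3% on an array.

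The opposite strands of the family's hairpins that were on the array gave little or no signal, and those of miR-195 and miR-497 were not on it. miR-15a*, miR-16* and miR-322* were detected on no array, with total gene signals from -7.27 to -1.18 after background subtraction. miR-15b* was detected on 1 array, with signals of 5.15 and 5.04 with siGFP and 4.08 and 6.95 with siLin28a. None of these 4 was tested. miR-103 and miR-107 carry the core of the family seed moved by 1 base (bases 2 to 8 are GCAGCAU in both, against AGCAGCA) and are known for roles in metabolism and the cell cycle. miR-103 differed by -0.055 (SE 0.081, limma adjusted p = 0.676) and miR-107 by 0.045 (SE 0.073, limma adjusted p = 0.712), and for both the groups overlapped. miR-503, whose bases 2 to 8 are AGCAGCG, was too dim to test, as given above.

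The 3 tested miRNAs whose pattern over the 4 arrays was most like the mean of the members were miR-134, miR-425 and miR-295*. Likeness was the root mean square difference between log2 values centred on each miRNA's own mean, and it was 0.014, 0.021 and 0.034. Centred, the mean of the members was -0.067 and 0.034 with siGFP, against -0.051 and 0.084 with siLin28a, and miR-134 was at -0.055 and 0.010, against -0.051 and 0.096. The differences between groups were 0.045 (SE 0.11) for miR-134, 0.058 (SE 0.11) for miR-425 and -0.031 (SE 0.11) for miR-295*, with limma adjusted p of 0.797, 0.752 and 0.869. A mean over 6 members on 4 arrays is a thin basis for likeness, and in this mean the replicate 2 arrays were the higher ones in both groups. Of the members, miR-195 and miR-497 had the largest differences between replicates, as given above, so the likeness need not hold for each member.

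Other miRNAs known to act on the step from G1 to S are given by list. Of 19 miRNAs on the array known to slow that step, chiefly let-7 and miR-34 relatives, 10 were tested. Of these, 5 were let-7 members kept because of their siLin28a signal, being at the floor in the siGFP group, so they could only go up. Both miRNAs that limma called, let-7a and let-7f, are among these 5. The other 5, miR-34a, miR-34b-5p, miR-26a, miR-26b and miR-107, were detected on all arrays. None of them was called, against 0.866% of all tested miRNAs, and their log2 differences ran from 0.024 to 0.82, with 3 of the 5 higher without overlap (30.7% of all tested). Of 21 known to promote that step, chiefly the miR-17-92 relatives and the miR-290 cluster, 15 were tested and 0 were called. Of these, 3 had a higher and 12 a lower mean, with a median of -0.25, beside 114 higher and 114 lower means and a median of 0 over all 231. Without overlap, 10 of the 15 were lower and 3 higher, beside 30.7% of all tested in each direction. The 3 higher ones in both counts were miR-25, miR-93 and miR-106b. Several of the 15 share a cluster, so they are not independent of each other. Whether the family differs from either list was not tested.

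All 8 miRNAs of the miR-290 cluster used as markers of mouse embryonic stem cells were detected on all arrays. Their summed total gene signals ran from 59874 to 60155 with siGFP, against 66496 to 68970 with siLin28a. These and the other sums are unscaled, and the siLin28a arrays were brighter as a whole. After scaling, the median log2 difference was -0.016 for these 8, 0.050 for the 4 tested fibroblast markers and 0.12 for the 3 tested neural ones. Of 6 muscle markers, a tissue in which miR-195, miR-322 and miR-497 are known to be high, none was detected on any array. Their signals summed to -14.7 and -17.3 with siGFP and -12.7 and -5.35 with siLin28a. Of 7 fibroblast or feeder markers 4 were detected on all arrays, and miR-145 and miR-199a-5p were detected on none. The fibroblast sums, 361 to 427 against 458 to 485, were lower on the replicate 2 array in both groups. Of 5 neural markers 3 were detected on all arrays (miR-124, miR-128 and miR-219), with sums of 206 and 252 with siGFP and 240 and 328 with siLin28a. The neural sums, of which miR-124 was the largest part, were higher on both replicate 2 arrays, as were miR-195 and miR-497. The fibroblast and blood sums went the other way, as did the largest part of each, miR-21 and miR-142-3p. Not every marker followed its sum. miR-31 of the fibroblast list, at 29.2 and 34.9 with siGFP and 24.9 and 30.8 with siLin28a, was higher on both replicate 2 arrays. So was miR-150 of the blood list, at 19.7 and 28.1 against 24.6 and 37.1. Of the neural list, miR-9 and miR-137 were detected on no array. Of 7 blood markers 3 were detected on all arrays, and of 4 endoderm markers 0 were. The blood sums, 115 to 142 against 144 to 182, were lower on the replicate 2 array in both groups. The endoderm sums, 5.03 and 9.53 against 14.2 and 32.1, were higher on both replicate 2 arrays. miR-144, miR-223 and miR-451 of the blood list, and miR-122 and miR-375 of the endoderm list, were detected on no array. The part of such cells in the family's values was not tested.

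The sign of several members' differences changed with the scaling and with the arrays used. The median over all tested miRNAs was 0 as reported, -0.16 with the scaling over all probes, 0.19 with no scaling, -0.19 with the normexp background correction and 0.21 in the authors' deposited table. Taken relative to that median, miR-16 lay above it by 0.098 to 0.40 and miR-15b by 0.077 to 0.33 in the reported setting and 15 alternatives. Of these alternatives, 3 (no filter on dim probes, no trend, the replicate block) repeat the reported value for both (within 0.0001), and a change of scaling alone moves it little, so the tally is no measure of stability. miR-322 lay below it in all 16 settings, with values from -0.13 to -0.0034. Most settings leave out its dim probe or set it to the floor, so this tally too is no measure of stability. miR-322 lay nearest the median with total gene signals (-0.0034) and in the authors' deposited table (-0.0064). miR-15a was above the median in 6 settings, miR-195 in 5 and miR-497 in 12. The difference of miR-16 minus that of miR-15a ranged from 0.081 to 0.26 over the settings, and that of miR-15b minus that of miR-15a from 0.054 to 0.20. A factor common to an array cancels between 2 members, and in 6 of the 15 alternatives these values equal the reported one by construction. No member was called in any setting, and the lowest limma adjusted p was 0.109, for miR-16 in the authors' deposited table. These settings reuse the same 4 arrays and are not independent.

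**Figure D4:**
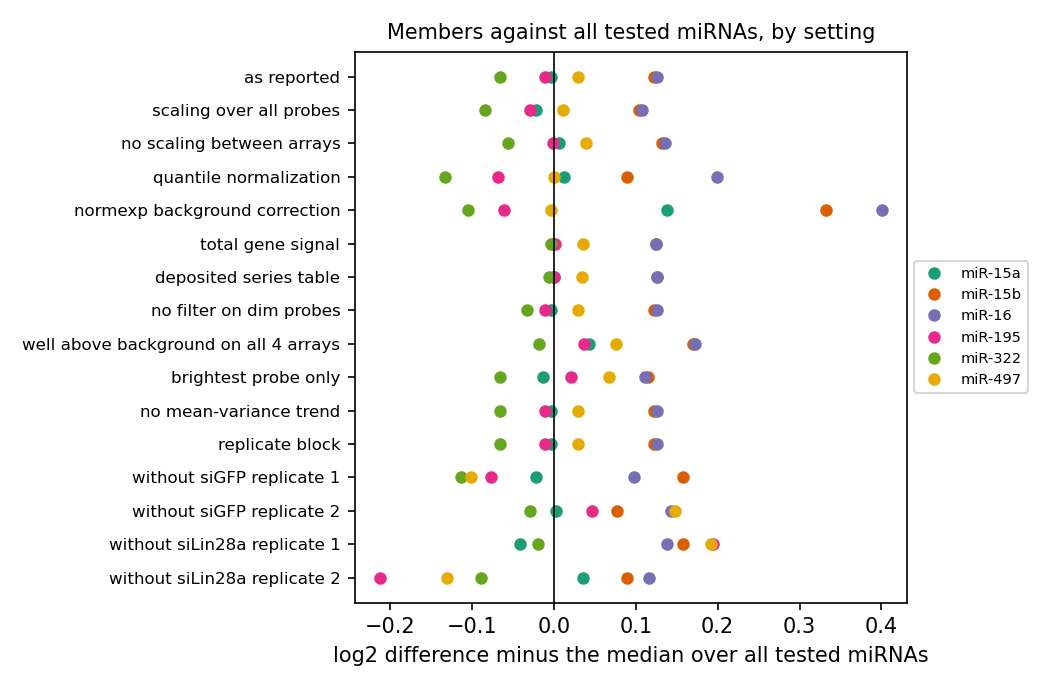
The difference of each member, siLin28a minus siGFP in log2, after subtracting the median over all tested miRNAs, in the reported setting and 15 alternatives. miR-15b and miR-16 lie to the right of 0 in every row and miR-322 to the left, while miR-195 and miR-497 move most when an array is left out.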

How the data were processed

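The deposited scanner files hold linear intensity values, made by the authors with Agilent Feature Extraction 9.5.1.1 per the file headers (9.5.3.1 per the submitters' processing notes). The processed intensity is a spot's mean signal minus a fitted background surface. The authors' deposited table holds the total gene signal, rounded and unscaled, and was used on log2(value + 1). Other deposited columns hold flags of 0 or 1.

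Processed signals were averaged over non-outlier spots per probe, scaled to the 75th percentile of probes that exceeded background on every array (flag on at least 50% of spots), and floored at 0.0948 before log2. Of 1712 probes, 477 exceeded background on each array of either group, and averaging them gave 231 miRNAs. Groups came from the titles. The test was limma 3.58.1, run in R 4.3.3 (linear model, eBayes with a trend, two-sided, Benjamini-Hochberg over 231 miRNAs, threshold 0.05). It was run on simulated data with independent noise on each array and larger effects than the members' differences. That run does not cover noise shared between arrays or differences as small as these. Residual degrees of freedom were 2 and prior ones 1.64, so the number of arrays limits precision. All arrays lay on 1 slide, scanned once. No spot was saturated.

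Members, lists and alternatives were chosen with earlier results of these data known. The rule named all members, the tested miRNAs of the lists of opposite strands, cluster and related seeds, and the 3 miRNAs most like the family's mean. It also named up to 3 bright miRNAs of each other list, and those lists are given here mainly as counts. let-7a, let-7f, miR-25, miR-93, miR-106b and the cell type markers given by name were named after their values were seen. Alternatives changed the scaling, background correction, signal summary, filter, trend, replicate block and arrays used.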

Additional observations from a re-analysis of the deposited data

How the results depend on the processing

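No member passed the threshold under any of 15 alternatives, but several values near 0 changed sign, and in most cases the median of all tested miRNAs moved with them. With the scaling over all probes, miR-15b was at -0.052, miR-16 at -0.049, miR-497 at -0.15, miR-107 at -0.13, miR-134 at -0.13 and miR-425 at -0.12, the members' median at -0.16, and 0 member probes were higher. With no scaling, miR-15a was at 0.20, miR-195 at 0.19, miR-322 at 0.14, miR-103 at 0.15 and miR-295* at 0.17, the median at 0.22, and 11 probes were higher. In the authors' deposited table, also unscaled, miR-15a was at 0.21, miR-195 at 0.21, miR-322 at 0.21, miR-103 at 0.16 and miR-295* at 0.19, and the median at 0.23. With normexp, miR-497 was at -0.19, miR-134 at -0.24 and miR-425 at -0.24, the median at -0.12, and 4 probes were higher. With quantile normalization, miR-497 was at -0.060, miR-107 at -0.025, miR-134 at -0.085 and miR-425 at -0.092, and 3 probes were higher. With total gene signals, miR-497 was at -0.027, miR-107 at -0.012, miR-134 at -0.068 and miR-425 at -0.024. The brightest probe alone gave 0.021 for miR-195 and -0.19 for miR-134, and the filter on all 4 arrays gave -0.0092 for miR-134. Apart from the effect of scaling on that median, the cause was not tested.

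With 1 array left out, where a lone array is assumed to vary like the other group, miR-15a ranged from -0.041 to 0.033, miR-15b from 0.087 to 0.16, miR-16 from 0.090 to 0.16, miR-195 from -0.22 to 0.19, miR-322 from -0.12 to -0.011 and miR-497 from -0.13 to 0.19. The members' median ranged from -0.057 to 0.15, miR-103 from -0.13 to 0.019, miR-107 from -0.0040 to 0.093, miR-134 from -0.029 to 0.12, miR-425 from -0.015 to 0.13 and miR-295* from -0.083 to 0.021.

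The count of miRNAs called higher, 2 as reported, was 0 with the scaling over all probes, 0 with the filter on all 4 arrays, 5 with normexp, 8 with total gene signals, 24 in the deposited table and 40 with no filter, and 0 to 13 with 1 array left out. The count called lower, 0 as reported, was 2 with normexp and 8 with no filter, where 58.4% of miRNAs had no spread at all. With the replicate block, the count called higher was 2 and the differences were the same by construction, but the SE of miR-497, miR-195, miR-16 and miR-15b moved by over 1.5 times, with adjusted p of 0.351 for miR-16 and 0.394 for miR-15b. Deviations of same-numbered arrays correlated at 0.71 over 231 miRNAs, but the labels do not say that a number marks a shared batch. Of 105 values of the 7 named miRNAs outside the family under alternatives, 24 changed sign and 1 passed the threshold, that of miR-450a-5p with no filter (-0.19, adjusted p = 0.00524). Signal over background limits miR-322, which kept 1 probe of 2.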
